A study of Mus musculus with 48 samples.

Results

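The 10 genes described here make and sense the prostaglandins of the brain. They are Ptgs1 and Ptgs2 (cyclooxygenases), Ptgds and Hpgds (prostaglandin D2 synthases), Ptges, Ptges2 and Ptges3 (prostaglandin E2 synthases), and Ptgdr, Ptger3 and Ptger4 (receptors). Their members on the array were all probes whose RefSeq accession belongs to 1 of these genes, which gave 14 of 41174 probes and 10 of 18883 named genes. The rule itself uses no measured value, although the genes were chosen with earlier results of these data known. In 12 probes of 9 genes the signal was high enough to be tested, and both probes of Ptgdr were not.

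Transcripts were measured on 1-colour Agilent arrays in frontal cortex and hypothalamus of 24 adult C57BL/6 mice, each sacrificed at the end of 12 h of sleep deprivation that began at light onset. Per3 5/5 mice (n = 8) and Per3 4/4 mice (n = 8) were homozygous knock-ins whose Per3 gene, a member of the period family of clock genes, carried exon 18 of human PER3 with 5 or 4 repeats of its variable-number tandem repeat. WT mice (n = 8) kept the mouse exon and, as the study states, derived from the same conditional transgenic mice as the knock-ins. The 5-repeat and 4-repeat alleles were made as separate lines, and mice of each genotype were bred from homozygous pairs. Genotype and breeding line therefore cannot be told apart. The exchange was made by a Cre recombinase active in all cells, which was bred out of all groups, so it is present throughout the body and from development on. All groups shared the sleep deprivation, no mouse left to sleep was measured, and the sources used here do not give the sex of these mice.

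Prostaglandins are lipids made on demand from arachidonic acid. A cyclooxygenase converts arachidonic acid to prostaglandin H2, and terminal synthases turn this into prostaglandin D2, E2 and others, which act on receptors of the cell surface. In the brain prostaglandin D2 is known as a promoter of sleep and is made largely by the Ptgds enzyme of leptomeninges, choroid plexus and oligodendrocytes, while prostaglandin E2 in the hypothalamus is known for fever and wakefulness. Ptgs2 is induced by synaptic activity in cortical neurons, and Ptgs1 and Hpgds are found in microglia.

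Levels are given as log2 signal relative to the 75th percentile of the array, so that 0 is the brightness of the probe at that percentile and 1 unit is a 2-fold change. They compare samples for 1 probe and say nothing of which gene is more abundant. The 75th percentile lay between 972.8 and 1884 intensity units on the WT arrays, 727 and 1217 on the Per3 5/5 arrays, and 307.2 and 1575 on the Per3 4/4 arrays, with the lowest in both tissues of Per3 4/4 replicate 6. Arrays were scanned on 3 days that held 4 Per3 5/5 and 4 Per3 4/4 mice (day 1), 3 Per3 4/4 and 5 WT mice (day 2), and 4 Per3 5/5, 1 Per3 4/4 and 3 WT mice (day 3). Between replicate arrays r was 0.958 to 0.993. The Per3 probe, whose place relative to the exchanged exon is not known here, had cortex levels of -2.73 ± 0.20 for Per3 5/5, -3.02 ± 0.37 for Per3 4/4 and -3.43 ± 0.26 for WT (SD, n = 8), so it does not check the labels. Of the cortex markers, 10 of 10 were lower in hypothalamus, and of the hypothalamus markers 12 of 14 were higher there and 2 lower. Of all probes 35.6% were lower there and 38.1% higher.

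The upstream sequences of both cyclooxygenase genes are shown because these isoenzymes catalyse the same step and both differed between the tissues without overlap. Ptges3 probe A_52_P249699 did not overlap either, at 0.27 to 0.75 in cortex and 0.78 to 1.38 in hypothalamus. The share of all probes without overlap was not counted, so lack of overlap does not set these genes apart. The sequences are from RefSeq (GRCm38.p6, plus strand for both), which held all 10 genes. The first pair of lines gives the 250 bases before the annotated start, chr1:150099781-150100030 for Ptgs2 and chr2:36230176-36230425 for Ptgs1, and the second pair the first 30 bases from that start, chr1:150100031-150100060 and chr2:36230426-36230455. Capitals mark matches on either strand to 4 motifs. TATAAA is the letters of a typical promoter box near transcription starts. TGACG is the core of the response element for cyclic AMP. CACGTG is the E-box bound by clock transcription factors. GGGCGG is the motif bound by Sp1.
Ptgs2 before start: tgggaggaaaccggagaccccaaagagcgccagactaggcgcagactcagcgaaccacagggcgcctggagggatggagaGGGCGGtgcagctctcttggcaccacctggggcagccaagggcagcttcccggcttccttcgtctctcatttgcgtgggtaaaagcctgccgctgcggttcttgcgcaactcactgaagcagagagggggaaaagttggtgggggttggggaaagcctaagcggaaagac
Ptgs1 before start: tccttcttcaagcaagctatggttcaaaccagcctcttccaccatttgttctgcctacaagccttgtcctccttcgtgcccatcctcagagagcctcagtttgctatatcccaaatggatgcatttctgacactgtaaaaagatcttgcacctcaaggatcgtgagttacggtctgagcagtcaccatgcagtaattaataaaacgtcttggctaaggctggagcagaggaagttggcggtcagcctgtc
Ptgs2 from start: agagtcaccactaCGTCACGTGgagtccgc
Ptgs1 from start: agaggtgacaactggagggaggagtggggg
In Ptgs2 the TGACG match, on the minus strand, began at base 14 after the start and overlapped the CACGTG match that began at base 17. Its GGGCGG match began 170 bases before the start. The window of Ptgs1, 250 bases before to 50 after the start, held none of these letters. Windows of this length held TATAAA in 13.6%, TGACG in 20.8%, CACGTG in 7.15% and GGGCGG in 35.7% of 32851 RefSeq promoters, and in 0, 2, 2 and 5 of the 10 genes described here. TGACG also occurred in Ptges3 and CACGTG in Ptges2.

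Between the tissues, 10 of the 12 tested probes differed at an adjusted p under 0.05, against 73.6% of all 31228 probes tested (limma, paired within mouse). Of the 12, 4 were higher in hypothalamus (38.1% of all probes) and 6 lower (35.6%). Within a genotype, 10 were called in Per3 5/5 (58.6% of all probes), 10 in Per3 4/4 (59%) and 8 in WT mice (59.5%). In the comparison over all genotypes, the median absolute log2 difference of the 12 was 0.51, against 0.34 over all probes. Ptgs2, Ptgs1, Ptges2, Hpgds and 1 probe of Ptger3 were lower in hypothalamus, and Ptger4, Ptgds and Ptges3 were higher there. Because the tissues are mixtures, fewer cells of a type and less RNA per cell cannot be told apart.

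**Figure D1:**
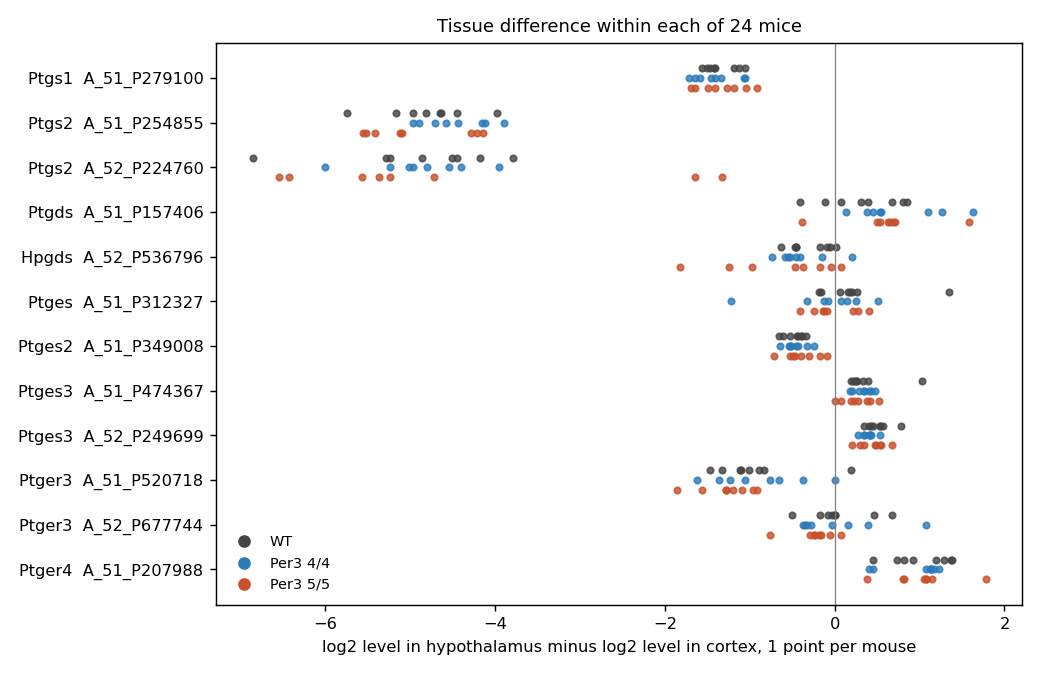
Log2 level in hypothalamus minus log2 level in cortex (x axis) of the 12 tested probes (rows), with 1 point for each of the 24 mice, coloured by genotype. Ptgs2 probe A_51_P254855 lies between -5.73 and -3.89 in all mice, the second Ptgs2 probe spreads from -6.84 to -1.33, Ptgs1 lies between -1.71 and -0.92, and Ptger4 lies between 0.38 and 1.78.

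Ptgs2 showed the widest tissue difference of the 9 genes tested. Its probe A_51_P254855, spotted 10 times on each array, had a median of -1.05 in the 24 cortex samples (-1.42 to -0.12) and of -5.48 in the 24 hypothalamus samples (-6.64 to -4.79). The tissues did not overlap, and the hypothalamus was lower in 24 of 24 mice, with log2 differences of -5.73 to -3.89. The fitted difference was -4.73 ± 0.10 (log2, SE), 26.5-fold, with an adjusted p = 1.99e-22 (limma). Of 31228 probes, 50 had a more negative difference. The other Ptgs2 probe, A_52_P224760, gave -4.79 ± 0.26, although it was well above background in all 24 cortex samples but in 10 of 24 hypothalamus samples. With normexp background correction, which compresses dim signals, the difference was -2.78 for the first probe and -2.03 for the second.

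Immediate early genes, which like Ptgs2 respond to synaptic activity, were also lower in hypothalamus, 18 of 20 tested and none higher. Of all probes 35.6% were lower there and 38.1% higher. Egr2 differed by -3.87 ± 0.14, Arc by -3.89 ± 0.09 and Fos by -0.63 ± 0.09 (log2, SE). Their summed log2 level was 6.39 to 7.52 in cortex samples and 4.34 to 4.97 in hypothalamus samples. Their part in the Ptgs2 difference was not tested.

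Ptgs1, the constitutive cyclooxygenase, followed the same direction with a smaller step. Its level was 0.76 to 1.60 in cortex (median 1.18) and -0.60 to 0.04 in hypothalamus (median -0.19), again without overlap. The difference was -1.36 ± 0.05 (2.57-fold, adjusted p = 6.67e-18, limma) and negative in 24 of 24 mice. Ptgs1 was not called in any genotype comparison, with log2 differences of -0.11 and 0.05 from WT in cortex (Per3 5/5 and Per3 4/4) and -0.10 and -0.01 in hypothalamus. The 95% intervals lay within -0.32 and 0.27 (cortex) and within -0.26 and 0.15 (hypothalamus). Microglia and macrophage markers were lower in hypothalamus in 13 of 13 genes (35.6% of all probes), by a median of 0.55 log2 units. Their part in the Ptgs1 difference was not tested.

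The genotype comparisons ask whether the repeat number, or the knock-in as such, goes with other transcript levels after sleep loss. Mice of either knock-in genotype were set against the same WT arrays, so the 2 sets of differences are not independent. Between Per3 5/5 and WT, 2 of 12 probes were called in cortex (12.4% of all 29715 probes) and 2 of 12 in hypothalamus (18.8% of 30735). Between Per3 4/4 and WT, 1 of 12 was called in cortex (22.5%) and 1 of 12 in hypothalamus (15.1%). The share of these probes called was near or below that of the array. Called probes were all lower in Per3 5/5 mice, where 8.44% of all probes were higher and 3.91% lower in cortex, and 10.3% and 8.55% in hypothalamus. In Per3 4/4 mice the call was lower in cortex (13.4% of all probes higher, 9.14% lower) and higher in hypothalamus (8.24% and 6.81%). With median centring in place of the 75th percentile, the median of all cortex probes moved from 0.06 to -0.05 for Per3 5/5 against WT, and the split of called probes from 2509 higher and 1161 lower to 663 and 2795. For Per3 4/4 it moved from 3980 and 2716 to 1871 and 3595 in cortex. In hypothalamus it moved from 3159 and 2629 to 1873 and 3561 (Per3 5/5) and from 2534 and 2094 to 1318 and 2831 (Per3 4/4). With scan day as a block, 0.986% and 7.72% of all cortex probes and 2.1% and 0.745% of all hypothalamus probes were called (Per3 5/5 and Per3 4/4 against WT), and none of the 12.

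**Figure D2:**
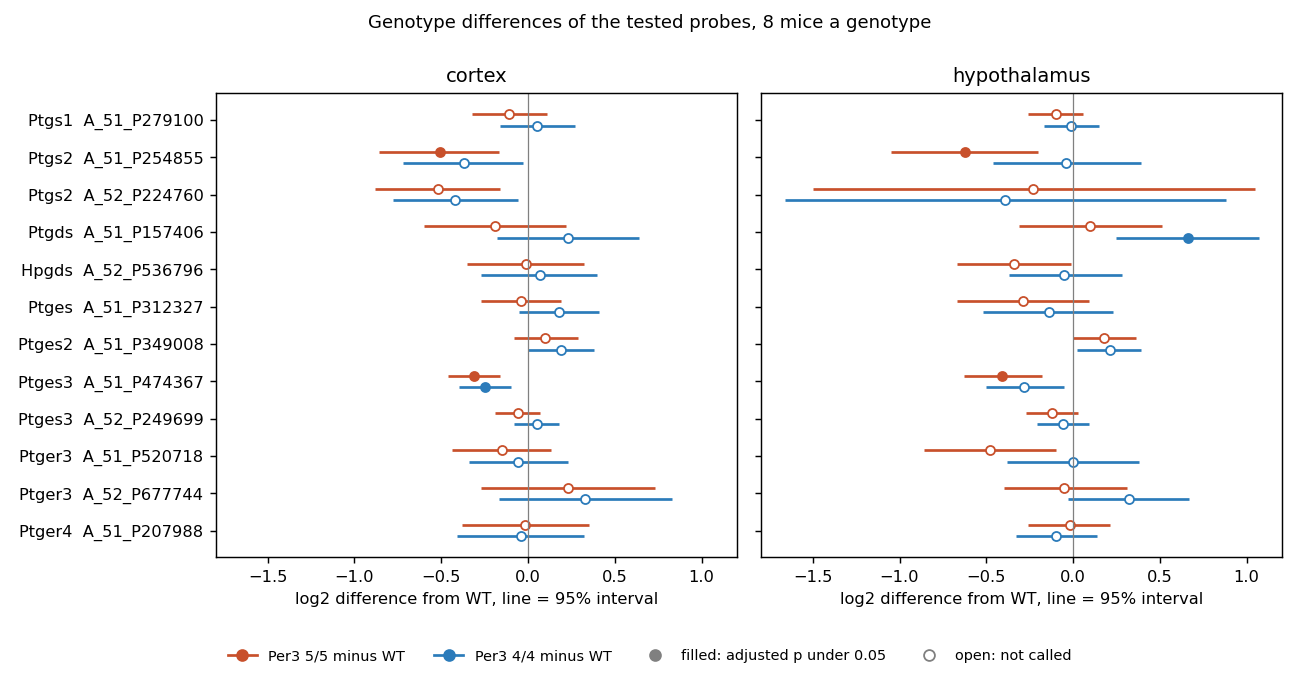
Log2 difference from WT (x axis) of the 12 tested probes in cortex (left) and hypothalamus (right), for both knock-in genotypes, 8 mice each. Lines are 95% intervals from limma, and filled points had an adjusted p under 0.05: Ptgs2 and a Ptges3 probe in Per3 5/5 of both tissues, that Ptges3 probe in Per3 4/4 cortex, and Ptgds in Per3 4/4 hypothalamus.

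Ptgs2 was lower in Per3 5/5 than in WT mice in both tissues. In cortex, probe A_51_P254855 ranged from -1.06 to -0.12 in WT (median -0.60), from -1.32 to -0.43 in Per3 4/4 (median -1.10) and from -1.42 to -0.14 in Per3 5/5 mice (median -1.27). Of the 8 Per3 5/5 mice, 6 lay below all WT mice, 1 lay at -1.05 within the WT range, and replicate 8 lay at -0.14, near the highest WT mouse. The difference between Per3 5/5 and WT was -0.51 ± 0.17 (1.42-fold, 95% interval -0.86 to -0.17, adjusted p = 0.0468, limma). Without Per3 5/5 replicate 8 it was -0.65 (adjusted p = 0.00344). The call is close to the threshold, and it was lost on leaving out any of 7 Per3 5/5 mice or any of 6 WT mice (replicates 1, 2, 5, 6, 7 and 8), with differences of -0.52 to -0.44 and adjusted p up to 0.0886. The other probe gave -0.52 ± 0.17 (adjusted p = 0.0519). Per3 4/4 mice differed from WT by -0.37 ± 0.17 and -0.42 ± 0.17 on these probes (adjusted p = 0.108 and 0.081). In the same fit Per3 5/5 differed from Per3 4/4 by -0.14, with an interval of -0.48 to 0.21.

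The levels by scan day differed from genotype to genotype. The 4 Per3 4/4 mice of day 1 had Ptgs2 levels of -1.19 to -1.08 in cortex, those of day 2 -0.87 to -0.43 and the mouse of day 3 -1.32. WT mice had -1.06 to -0.34 on day 2 and -0.66 to -0.12 on day 3. Per3 5/5 mice had -1.42 to -1.05 on day 1 and -1.32 to -0.14 on day 3. With scan day as a block the Per3 5/5 difference from WT was -0.38 (adjusted p = 0.258), and among the mice of day 3 alone it was -0.57 (adjusted p = 0.384). It was also not called with no filter on dim probes, with slide as a random block, or with only these genotypes in the fit (-0.52 to -0.51, adjusted p = 0.0562, 0.0717 and 0.0678). For Per3 4/4 against WT the block gave -0.24 and day 2 alone 0.05.

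In hypothalamus Ptgs2 was near the detection limit, with 6 of 8 Per3 5/5 arrays well above background and 8 of 8 of the other genotypes. Its level ranged from -6.24 to -4.79 in WT (median -5.35), from -6.06 to -5.19 in Per3 4/4 (median -5.36) and from -6.64 to -5.46 in Per3 5/5 mice (median -6.03). All 8 Per3 5/5 mice lay below the WT median and 4 below all WT mice. The difference was -0.62 ± 0.21 between Per3 5/5 and WT (1.54-fold, adjusted p = 0.0383, limma), and -0.04 ± 0.21 between Per3 4/4 and WT. Against Per3 4/4, Per3 5/5 gave -0.59 ± 0.21 (unadjusted p = 0.00921 in limma, adjusted p = 0.24). The Per3 5/5 difference from WT was -0.41 with scan day as a block (adjusted p = 0.33), -0.34 among the mice of day 3 (adjusted p = 0.597) and -0.04 with normexp background correction (adjusted p = 0.931). Quantile normalization, no filter on dim probes, slide as a random block and only these genotypes in the fit gave -0.67 to -0.60, likewise not called (adjusted p = 0.0535, 0.0559, 0.0755 and 0.073). Leaving out Per3 5/5 replicate 1, 3, 6 or 7 or WT replicate 1, 2, 3, 5 or 6 also ended the call, with differences of -0.62 to -0.53 and adjusted p up to 0.0775. The second probe was well above background on 2 of 8 arrays of Per3 5/5, 2 of Per3 4/4 and 6 of WT, and gave -0.23 ± 0.62, with an interval of -1.5 to 1.05. On it Per3 5/5 replicates 5 and 7 lay at -3.71 and -3.96, and the other Per3 5/5 mice at -8.68 to -6.72. On the first probe these replicates lay at -5.51 and -6.41. Medians on the second probe were -7.44 in Per3 5/5 and -6.44 in WT mice. In the same comparison of Per3 5/5 with WT hypothalamus, 6 of 9 tested blood and neutrophil markers were lower and none higher (2 of 9 lower with scan day as a block), at a median log2 difference of -1.81 against 0.03 over all probes. Of all probes 8.55% were lower and 10.3% higher in this comparison, and 2.1% were called with scan day as a block. The 6 were neutrophil genes, among them S100a8 at -3.11 ± 0.64 and S100a9 at -2.78 ± 0.60 (log2, SE), while the haemoglobin genes Hbb-bt and Hba-a1 gave 0.20 ± 0.28 and 0.17 ± 0.31. The summed level of the whole list was 6.38 to 8.55 in Per3 5/5 and 6.1 to 7.9 in WT mice. This sum adds linear levels, so bright genes weigh most in it, and it does not measure the 6 neutrophil genes. Of the microglia and macrophage markers 3 of 13 and of the leptomeningeal markers 3 of 16 were lower, and none of either list with scan day as a block. The part of these cell types in the Ptgs2 values was not tested.

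**Figure D3:**
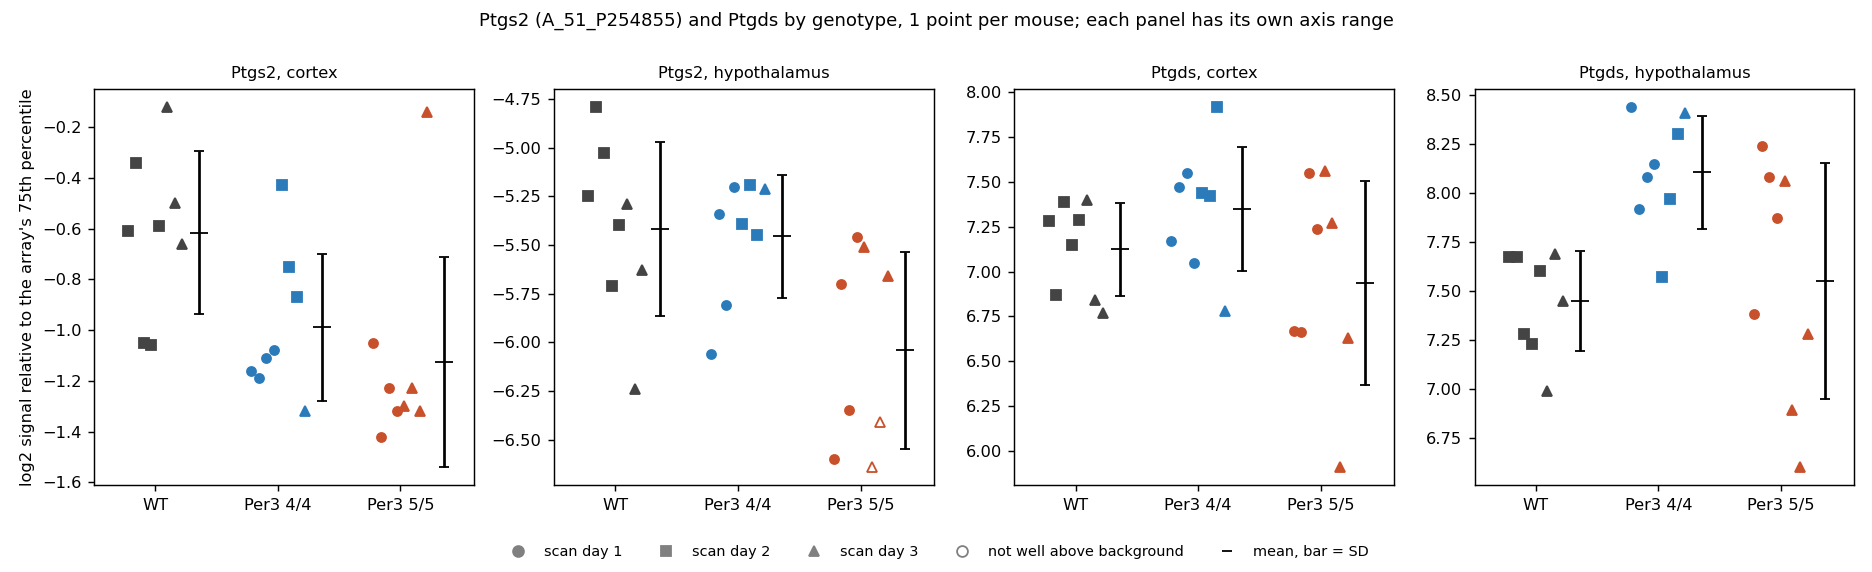
Levels of Ptgs2 (probe A_51_P254855, 2 left panels) and Ptgds (2 right panels) in each mouse by genotype, as log2 signal relative to the 75th percentile of the array, with the marker shape giving the scan day, open markers for signals not well above background, and bars for the mean and SD of 8 mice. Per3 5/5 replicate 8 stands apart at -0.14 in cortex for Ptgs2, and 7 of 8 Per3 4/4 mice lie above all WT mice in hypothalamus for Ptgds.

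The genes whose values followed Ptgs2 most closely from mouse to mouse were 1700001P01Rik, Nwd2, Egr2, Bdnf and Maf. Likeness was the mean over both tissues of Pearson's r of deviations from the genotype mean, across 24 mice a tissue and among 22731 probes. It was 0.589, 0.567, 0.556, 0.553 and 0.532. Egr2 and Bdnf, both induced by activity, were alike in cortex (r = 0.886 and 0.809) more than in hypothalamus (r = 0.226 and 0.297). Without Per3 5/5 replicate 8 these cortex values were 0.823 and 0.676, and that of Maf fell from 0.516 to 0.197. That mouse also had the highest summed level of immediate early genes in cortex, 7.52 against 6.52 to 6.99 in the other Per3 5/5 mice. The points share array scaling, slides and scan days, and with genotype and scan day means removed the mean r was 0.505 to 0.594 for these 5 genes.

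Ptgds, the lipocalin-type prostaglandin D2 synthase, was slightly higher in hypothalamus than in cortex. Its median level was 7.26 in cortex (5.91 to 7.92) and 7.68 in hypothalamus (6.60 to 8.44), and the ranges overlapped. The hypothalamus was higher in 21 of 24 mice, by 0.56 ± 0.10 (1.48-fold, adjusted p = 1.6e-05, limma). Within a genotype the tissue difference was 0.61 in Per3 5/5 (adjusted p = 0.00343), 0.75 in Per3 4/4 (adjusted p = 0.000508) and 0.32 in WT mice (adjusted p = 0.108). The interaction of Per3 4/4 against WT was 0.43 ± 0.24 (unadjusted p = 0.0863, limma).

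In hypothalamus Ptgds was higher in Per3 4/4 than in WT mice. It ranged from 6.99 to 7.69 in WT (median 7.53), from 7.57 to 8.44 in Per3 4/4 (median 8.12) and from 6.60 to 8.24 in Per3 5/5 mice (median 7.62). All but 1 Per3 4/4 mouse lay above all WT mice, while Per3 5/5 mice spread over both. The difference was 0.66 ± 0.20 between Per3 4/4 and WT (1.58-fold, 95% interval 0.25 to 1.07, adjusted p = 0.0314, limma), and 0.10 ± 0.20 between Per3 5/5 and WT. Against Per3 4/4, Per3 5/5 gave -0.56 ± 0.20 (unadjusted p = 0.0102, adjusted p = 0.245, limma). In cortex the differences from WT were 0.23 ± 0.20 (Per3 4/4) and -0.19 ± 0.20 (Per3 5/5), neither called. The hypothalamus call was lost with scan day as a block (0.47, adjusted p = 0.226), among the mice of day 2 alone (0.46, adjusted p = 0.55), with median centring (0.60, adjusted p = 0.0536), with quantile normalization (0.35, adjusted p = 0.184), with normexp (0.66, adjusted p = 0.0513) and with slide as a random block (0.63, adjusted p = 0.0559). Leaving out Per3 4/4 replicate 1, 3, 4, 7 or 8 or WT replicate 4 or 6 also ended it, with differences of 0.59 to 0.66 and adjusted p of 0.0516 to 0.0687.

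Genes that followed Ptgds from mouse to mouse did so far more closely than those of Ptgs2. They were Slc6a13 (r = 0.94 in cortex and 0.911 in hypothalamus), Slc6a12 (0.888 and 0.922), Slc22a6 (0.901 and 0.903), Mrgprf (0.919 and 0.877) and Bmp6 (0.92 and 0.864). Slc6a13 and Slc6a12 are GABA and betaine transporters and Slc22a6 is an organic anion transporter. Slc6a13 and Slc22a6 are on the list of leptomeningeal markers. With scan day means removed as well, the mean r of these genes was 0.872 to 0.914.

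Of 16 leptomeningeal markers, 14 were higher in hypothalamus than in cortex and none lower (38.1% and 35.6% of all probes). In hypothalamus their summed level was 4.72 to 5.85 in WT (log2, median 5.47), 4.98 to 6.20 in Per3 4/4 (median 5.63) and 3.85 to 5.70 in Per3 5/5 mice (median 5.03). None of the 16 was called between Per3 4/4 and WT in limma, where 6 had an unadjusted p under 0.05, against 10182 of all 30735 probes. Of the 16, 3 were lower in Per3 5/5 than in WT (8.55% of all probes), and none of the 16 with scan day as a block. In Per3 5/5 against Per3 4/4 none was called in limma, although 15 of the 16 had an unadjusted p under 0.05, against 4983 of all 30735 probes, at a median log2 difference of -0.88. Slc6a13 differed by 0.67 ± 0.29 and Slc22a6 by 0.74 ± 0.31 between Per3 4/4 and WT (adjusted p = 0.109 and 0.102, limma). These genes were named because they followed Ptgds closely. Over all 16 markers the median log2 difference between Per3 4/4 and WT was 0.26, against 0.02 over all probes. With scan day as a block that median of the 16 was 0.1. Per3 5/5 replicate 7 had the lowest Ptgds and the lowest leptomeningeal sum in both tissues (5.91 and 3.03 in cortex, 6.60 and 3.85 in hypothalamus). Of 11 oligodendrocyte markers, 6 were higher in Per3 4/4 than in WT hypothalamus and none lower, with Mbp, a myelin protein, at 0.46 ± 0.11 (adjusted p = 0.0121), and 2 of the 11 with scan day as a block. Their summed level was 7.59 to 8.15 in WT and 7.98 to 8.45 in Per3 4/4 hypothalamus. Of 10 choroid plexus markers, none was higher and 1 was lower. The part of these cell types in the Ptgds values was not tested.

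**Figure D4:**
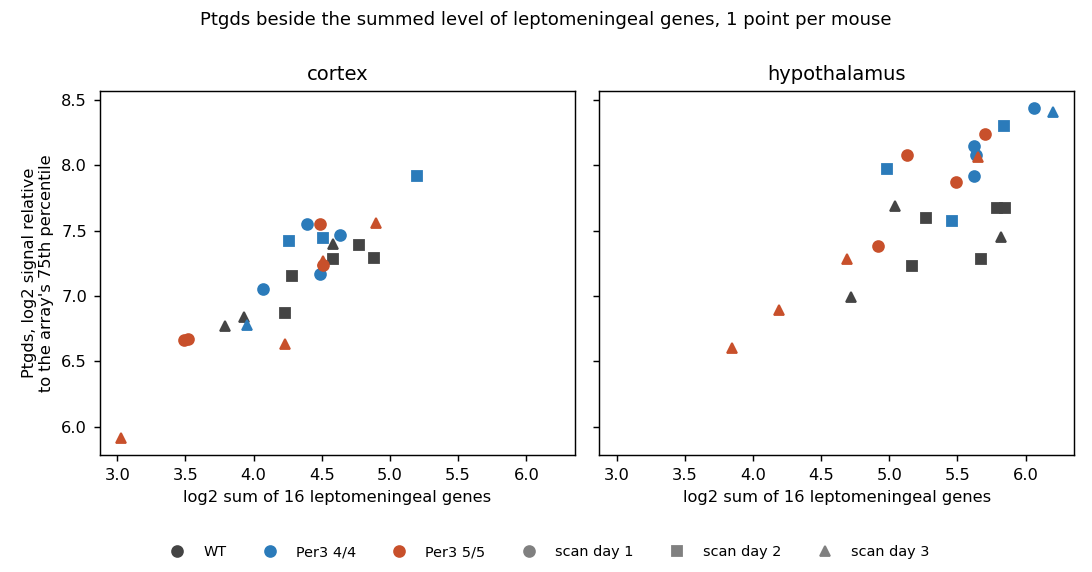
Ptgds level (y axis, log2 signal relative to the 75th percentile of the array) against the summed level of 16 leptomeningeal genes (x axis, log2) in cortex (left) and hypothalamus (right), with 1 point per mouse, coloured by genotype and shaped by scan day. Per3 5/5 replicate 7 is the lowest point in both panels, and the WT mice of the hypothalamus span sums of 4.72 to 5.85 at Ptgds levels of 6.99 to 7.69.

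Hpgds, the haematopoietic prostaglandin D2 synthase, was lower in hypothalamus. Its median level was -3.97 in cortex (-4.69 to -3.38) and -4.35 in hypothalamus (-5.55 to -3.95), with a difference of -0.44 ± 0.09 (1.36-fold, adjusted p = 7.85e-05, limma) that was negative in 21 of 24 mice. Its largest genotype difference was -0.34 ± 0.16, in Per3 5/5 against WT hypothalamus (adjusted p = 0.126). Microglia and macrophage markers were lower in the same comparison in 3 of 13 genes (8.55% of all probes), and in none with scan day as a block. Among the 3 were P2ry12 at -0.82 ± 0.24 and Itgam at -0.56 ± 0.16 (log2, SE). The summed level of these markers was 3.6 to 5.04 in Per3 5/5 and 4.70 to 5.26 in WT mice. Their part in the Hpgds values was not tested.

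Among the prostaglandin E2 synthases, the stress-inducible Ptges showed no called difference. Its levels were -2.36 to -1.41 in cortex and -2.95 to -0.91 in hypothalamus, with a tissue difference of 0.04 and a 95% interval of -0.14 to 0.22. Ptges2, a membrane-associated synthase, had levels of 1.85 to 2.56 in cortex and 1.49 to 2.15 in hypothalamus. Its tissue difference of -0.44 ± 0.03 (1.36-fold, adjusted p = 2.01e-11, limma) was small but negative in 24 of 24 mice. Ptges2 was 0.10 to 0.21 higher in the knock-ins than in WT, with adjusted p of 0.106 to 0.452.

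Ptges3, the cytosolic synthase also known as p23, a co-chaperone of HSP90, gave different answers on its probe pair. Both probes were higher in hypothalamus in 24 of 24 mice, by 0.32 ± 0.04 (A_51_P474367) and 0.45 ± 0.03 (A_52_P249699, adjusted p = 2.45e-07 and 1.11e-12, limma). On A_51_P474367 the cortex levels were 1.52 to 1.80 in WT (median 1.70), 1.30 to 1.5 in Per3 4/4 (median 1.46) and 1.15 to 1.64 in Per3 5/5 mice (median 1.39). All 8 Per3 4/4 mice and 6 of 8 Per3 5/5 mice lay below all WT mice. The differences from WT were -0.25 ± 0.07 for Per3 4/4 (1.19-fold, adjusted p = 0.0183) and -0.31 ± 0.07 for Per3 5/5 (1.24-fold, adjusted p = 0.0118, limma). On A_52_P249699 the same differences were 0.05 ± 0.06 and -0.06 ± 0.06, and the genotypes overlapped.

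In hypothalamus A_51_P474367 ranged from 1.82 to 2.83 in WT (median 1.94), from 1.51 to 1.93 in Per3 4/4 (median 1.81) and from 1.45 to 1.77 in Per3 5/5 mice (median 1.65). All 8 Per3 5/5 mice lay below all WT mice. The difference was -0.41 ± 0.11 for Per3 5/5 (1.33-fold, adjusted p = 0.0137, limma) and -0.28 ± 0.11 for Per3 4/4 (adjusted p = 0.0813). WT replicate 3 lay at 2.83, and leaving out single mice gave -0.44 to -0.30 for Per3 5/5 with adjusted p up to 0.0266. The A_52_P249699 probe differed by -0.12 ± 0.07 and -0.06 ± 0.07. With scan day as a block the A_51_P474367 differences were -0.32 and -0.24 in cortex (adjusted p = 0.0661 and 0.0739) and -0.33 and -0.25 in hypothalamus (adjusted p = 0.151 and 0.258), for Per3 5/5 and Per3 4/4. Within a scan day they were -0.30 (day 3) and -0.26 (day 2) in cortex and -0.33 and -0.29 in hypothalamus, none called.

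**Figure D5:**
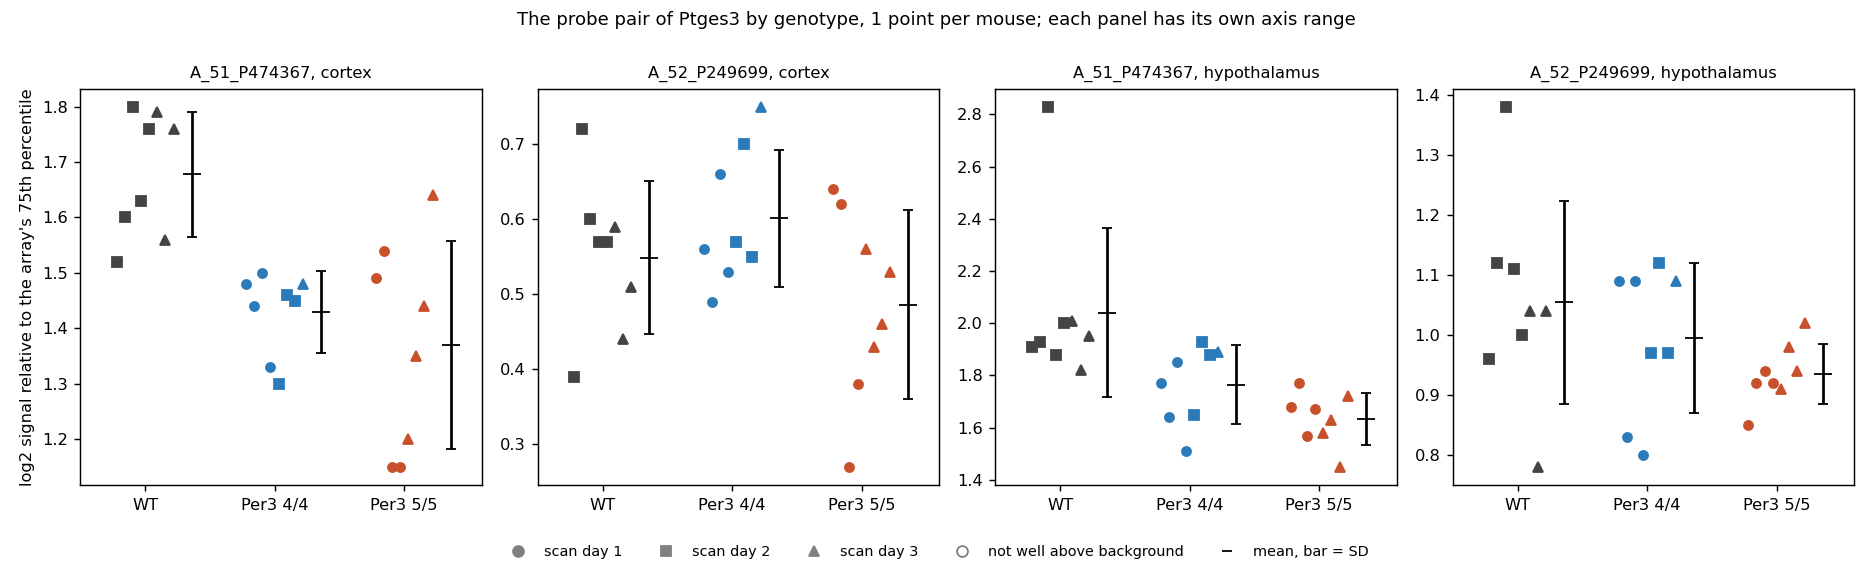
Levels of both Ptges3 probes in each mouse by genotype (log2 signal relative to the 75th percentile of the array), in cortex (2 left panels) and hypothalamus (2 right panels), with marker shape for scan day and bars for the mean and SD of 8 mice. On A_51_P474367 the WT mice lie above all Per3 4/4 mice in cortex and above all Per3 5/5 mice in hypothalamus, while on A_52_P249699 the genotypes overlap.

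The receptors were dim. Ptgdr, the DP1 receptor of prostaglandin D2, was well above background on 0 and 3 of 24 cortex arrays and 2 and 4 of 24 hypothalamus arrays on its probe pair, and it was not tested. Ptger4, the EP4 receptor of prostaglandin E2, was well above background on all arrays and had a median of -4.66 in cortex (-5.35 to -3.94) and of -3.62 in hypothalamus (-4.22 to -3.31). The hypothalamus was higher in 24 of 24 mice, by 1.0 ± 0.07 (2.0-fold, adjusted p = 4.58e-12, limma). Its differences from WT lay between -0.10 and -0.02, with intervals within -0.41 and 0.35.

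Ptger3, the EP3 receptor, again differed between probes. A_51_P520718 was lower in hypothalamus in 23 of 24 mice, at -5.02 to -3.38 against -3.74 to -2.81 in cortex, by -1.03 ± 0.09 (2.04-fold, adjusted p = 2.5e-10, limma). A_52_P677744, which was well above background on 22 of 24 cortex and 23 of 24 hypothalamus arrays, differed by -0.05 ± 0.08 (adjusted p = 0.573). On the first probe Per3 5/5 hypothalamus was lower than WT by -0.48 ± 0.18 and than Per3 4/4 by -0.48 ± 0.18 (unadjusted p = 0.0165 and 0.0157, adjusted p = 0.0704 and 0.257, limma), and neither passed. On the second these differences were -0.05 ± 0.17 and -0.37 ± 0.17.

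Comparing Per3 5/5 with Per3 4/4 mice, limma called 0 of the 12 probes in either tissue, and 0% of all probes. An unadjusted p under 0.05 was reached by 1 of 12 in cortex (Ptgds) and by 4 of 12 in hypothalamus (Ptgs2, Ptgds and both Ptger3 probes), against 4656 of 29715 and 4983 of 30735 probes in all. No tissue by genotype interaction was called among the 12 (limma), where 0.00961%, 0.0032% and 0% of 31228 probes were called for Per3 5/5 against WT, Per3 4/4 against WT and Per3 5/5 against Per3 4/4, and none of the 12 had an unadjusted p under 0.05. The smallest was 0.0826, for Ptgs2 in Per3 5/5 against Per3 4/4 (-0.45 ± 0.25).

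Of 37 other genes of eicosanoid metabolism and signalling, 34 were tested. Between the tissues 13 were higher in hypothalamus and 14 lower, where 38.1% of all probes were higher and 35.6% lower. Ptger2, the EP2 receptor, was 2.63 ± 0.15 higher, and Ptgr1, a reductase that inactivates prostaglandins and leukotrienes, 1.59 ± 0.07 higher. Mgll, the monoacylglycerol lipase that supplies brain arachidonic acid, was lower by -2.55 ± 0.07, and the endocannabinoid enzymes Dagla and Faah by -1.54 ± 0.10 and -1.23 ± 0.04. Pla2g4a, the cytosolic phospholipase A2, was 0.57 ± 0.07 higher.

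Against WT, 5 of the 34 were higher and 2 lower in Per3 5/5 cortex, 3 and 3 in Per3 4/4 cortex, 3 and 5 in Per3 5/5 hypothalamus, and 2 and 3 in Per3 4/4 hypothalamus. Of all probes, 12.4%, 22.5%, 18.8% and 15.1% were called in these comparisons. Their median log2 differences were -0.04, 0.11, -0.17 and 0.03, against 0.06, 0.02, 0.03 and 0.02 over all probes. Pla2g6, a calcium-independent phospholipase A2, was higher in all 4 comparisons, by 0.54 ± 0.13 and 0.65 ± 0.13 in cortex and 0.55 ± 0.15 and 0.56 ± 0.15 in hypothalamus (Per3 5/5 and Per3 4/4). Faah was higher by 0.38 ± 0.10, 0.55 ± 0.10, 0.45 ± 0.12 and 0.47 ± 0.12, and Abcc4, an exporter of prostaglandins, lower by -0.40 ± 0.11, -0.47 ± 0.11, -0.44 ± 0.11 and -0.42 ± 0.11. Ptgdr2, the second receptor of prostaglandin D2, was called in 3 of the 4 (0.35, 0.31 and 0.35, not Per3 4/4 hypothalamus), and Ptgr1 in 3 (-0.52 in Per3 4/4 cortex, -0.65 and -0.58 in hypothalamus). Dagla was lower in Per3 4/4 mice (-0.77 in cortex, -0.84 in hypothalamus). In Per3 5/5 cortex Plaa and Alox12b were higher and Akr1b3 lower, and in Per3 5/5 hypothalamus Ptger2, Alox5 and Anxa1 were lower. With scan day as a block, Plaa in Per3 5/5 cortex (0.43, adjusted p = 0.0432) and Faah and Pla2g6 in Per3 4/4 cortex (0.44 and 0.41, adjusted p = 0.0173 and 0.0146) were still called, and none in hypothalamus.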

How the data were processed

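RNA of frontal cortex and hypothalamus of 24 mice was hybridised to 48 1-colour arrays, and groups were taken from the labels, whose line names the series' design text ties to Per3 5/5 and Per3 4/4. The deposited scanner output, made by the authors with Agilent Feature Extraction 10.7.1.1, gives each spot's processed signal, a linear intensity after subtraction of background and detrending within the array. A second deposited table gives log2 values, shifted by the authors to the 75th percentile in GeneSpring and, as checked here, centred per probe on its tissue median (99.97% and 99.98% of values within 0.05). Its column medians lay between -0.0463 and 0.0822 in cortex and -0.104 and 0.0917 in hypothalamus.

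Each value was log2 of the processed signal minus log2 of the 75th percentile of its array. Outlier spots (48 to 172 per array) were set to missing, spots of a probe were averaged, and no spot was saturated. A probe was tested if 6 or more of the 8 arrays in any group were well above background. This gave 29715 probes in cortex and 30735 in hypothalamus. For the comparison of the tissues a group of either tissue sufficed, which gave 31228 probes. Probes were named by accession through the RefSeq gene table (27668 of 41174 matched). Array and gene table use different builds, so no probe position is given.

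limma 3.58.1 in R 4.3.3 compared the genotypes within a tissue (24 arrays, 3 group means) and the tissues within mice (48 arrays, mouse as a block), two-sided, with Benjamini-Hochberg adjustment over all probes tested and calls at an adjusted p under 0.05. The scripts were tested on simulated data. Named genes are all member probes, the called genes of the pathway list, and the 5 genes most like Ptgs2 and Ptgds; marker genes were named beside results after their values were seen. A gene of a list is given by its tested probe with the highest mean signal. A list sum adds linear levels over its genes. Members and lists were chosen with earlier results of these data known. The number of mice and arrays limits the precision. The rank product test of the study was not used here. 1 gene of the marker lists is left unnamed here.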

Additional observations from a re-analysis of the deposited data

Results flagged for a closer look

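Within groups of 8 mice, 9 of 84 sets of values held a sample set apart from the others by more than Dixon's 95% critical value; chance gives about 1 in 20. Ptgs2 of Per3 5/5 replicate 8 in cortex lay at -0.14 on A_51_P254855, with the next mouse at -1.05, and at -1.15 on A_52_P224760, with the next at -2.14. Ptges3 (A_51_P474367) of WT replicate 3 in hypothalamus lay at 2.83, with the next mouse at 2.01. In the same sample Ptger3 (A_51_P520718) lay at -3.44, with the next at -3.93. Ptges of WT replicate 8 in hypothalamus lay at -0.91, with the next mouse at -1.69. Ptger4 of Per3 4/4 replicate 6 in cortex lay at -5.35, with the next at -4.75, and this mouse had the dimmest arrays. Ptgdr, not tested, lay at -7.09 in Per3 5/5 cortex replicate 4 (A_52_P292354), at -4.35 in Per3 5/5 cortex replicate 1 and at -3.83 in Per3 4/4 hypothalamus replicate 1 (A_52_P36889); the last pair of spots was well above background and the first was not.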

How the results depend on the processing

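In Per3 5/5 against WT, the 2 member probes called in cortex and the 2 in hypothalamus fell to 0 with scan day as a block, on scan day 3 alone and with slide as a fixed block, and to 1 with slide as a random block, no filter on dim probes, the methods' t-test and only the genotypes compared. Of all probes, scan day 3 alone called 1 in cortex and 1 in hypothalamus, and slide as a fixed block 0. A count of 0 members in these fits therefore says little of the members. Per3 5/5 and WT arrays shared no slide. In hypothalamus 1 was also left with normexp and with only probes well above background on all arrays. In cortex 3 were called with median centring, quantile normalization, normexp, the authors' table and only probes well above background on all arrays, the third being Ptgs2 probe A_52_P224760 (adjusted p = 0.0233 to 0.0473 in limma). In Per3 4/4 against WT, the 1 call in cortex became 0 with scan day as a block, on scan day 2 alone and with slide as a fixed block, 2 with only the genotypes compared and 6 with normexp, where Ptger4 and Ptger3 (A_51_P520718) turned to 0.55 and 0.29. The 1 call in hypothalamus became 0 with median centring, quantile normalization, normexp, scan day as a block, scan day 2 alone and slide as a fixed or random block. Of all probes, scan day 2 alone called 164 in cortex and 5 in hypothalamus for Per3 4/4 against WT, and slide as a fixed block 0. Without single replicates the counts ranged from 1 to 3 (Per3 5/5 cortex, Per3 4/4 cortex, Per3 5/5 hypothalamus) and 0 to 1 (Per3 4/4 hypothalamus). The causes were not tested. The tissue comparison called 10 member probes under every alternative run, except 8 of the 9 probes well above background on all arrays. Replicate numbers are not stated to pair the genotypes. The r of same-numbered mice was -0.42 to 0.518, and above 0.1 in 1 to 6 of 8 pairs a comparison. With replicate number as a block, 1 member probe was called in Per3 5/5 cortex. The count of all probes called against WT went from 3670 to 3671 (Per3 5/5) and from 6696 to 6899 (Per3 4/4) in cortex. In hypothalamus it went from 5788 to 6407 and from 4628 to 5358, and from 0 to 2 for Per3 5/5 against Per3 4/4. Dim probes (Ptgdr, Ptgs2 in hypothalamus) limit what could be seen.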
